A study of Homo sapiens with 38 samples.

Results

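The data described here are the 6 total RNA libraries made from the nucleus and the cytoplasm of HCT116 cells that lack AGO1, AGO2 and AGO3, 6 of the 38 samples of the series. Members were chosen by their labels, as the nuclear and the cytoplasmic fraction at passages 11, 12 and 14 of the AGO1/2/3 knockout line. The study as a whole made 30 RNA libraries, 3 from each fraction of wild type cells, of this line and of lines without AGO1, without AGO2 or without both, and 8 libraries of RNA crosslinked to AGO2, which were not used here. HCT116 is an established human colorectal cancer line. The knockout line carries AGO1-/-, AGO2-/- and AGO3-/- and is 1 edited line, so that its 3 libraries per fraction are different passages of that line. The wild type cells, at passages 27, 28 and 29, carry no edit, and the labels name no treatment for either group. Genotype, clone and passage number cannot be told apart in this design, and the p-values measure only the spread between passages.

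Argonaute proteins hold a microRNA and are guided by it to matching sites in messenger RNAs, usually in the 3′ untranslated region (3′ UTR), where recruitment of partner proteins slows translation and shortens the life of the message. This silencing is best known from the cytoplasm, although Argonaute proteins have also been found in nuclei. AGO1, AGO2, AGO3 and AGO4 are the 4 human members of the family, and AGO2 is the one best known for cutting a fully matched target. Most RNA of a cell is made in the nucleus. Messenger RNAs then leave for the cytoplasm, those for secreted and membrane proteins are translated on the endoplasmic reticulum (ER), whose membrane is continuous with the nuclear envelope, and many long non-coding RNAs (lncRNAs) and small nucleolar RNAs stay behind.

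For each gene, estimated reads were summed over its transcripts and expressed as counts per 1000000 reads of a library (CPM) after scaling by normalization factors. The nucleus-to-cytoplasm ratio is given on the log2 scale, so that a positive value is nuclear, and it compares shares of 2 separately sequenced fractions rather than amounts of RNA per cell. In bulk fractions, fewer cells holding an RNA and less of it per cell cannot be told apart. The study states that its harsh lysis broke a few of the nuclei, and that some nuclear RNA may therefore be found with the cytoplasm. The part of such leakage in the ratios was not tested. A change of the ratio is the knockout ratio minus the wild type ratio, tested as an interaction with edgeR's quasi-likelihood test. A gene was called where the p adjusted by the Benjamini-Hochberg method over all 18916 genes tested was at most 0.05. The nuclear knockout libraries held 41594380 to 45762437 reads and the cytoplasmic ones 76102958 to 79324766, against 20431557 to 26536692 and 39476205 to 43281746 in wild type. The wild type libraries at passage 29 stood apart from passages 27 and 28 in both fractions, and the main counts are therefore also given without them.

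The edited genes were examined first. AGO1 (chr1:35869808-35930532, hg38) had 39.4, 39.3 and 38.1 CPM in the knockout nuclei and 18.5, 19.7 and 19.1 CPM in the knockout cytoplasm. In wild type it had 136, 134 and 113 CPM in the nucleus and 196, 193 and 165 CPM in the cytoplasm, so that every knockout library lay below every wild type library. AGO1 RNA was thus 3.28-fold lower in the nucleus and 9.66-fold lower in the cytoplasm, and its ratio changed from -0.53 to 1.03, a rise of 1.56 ± 0.124 (SE, n = 3 per group, adjusted p = 1.86e-04).

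AGO2 and AGO3 RNA did not fall in the same way. AGO2 (chr8:140520156-140635633) had 317, 319 and 306 CPM in the knockout nuclei against 464, 432 and 394 in wild type, a fall by 0.45 on the log2 scale (adjusted p = 0.0017). In the cytoplasm AGO2 had 477, 543 and 548 CPM against 517, 499.9 and 423, with overlapping groups and a difference of 0.12 (adjusted p = 0.36). AGO3 (chr1:35930718-36072500) fell by 0.31 in the nucleus (adjusted p = 0.0193) and rose by 0.35 in the cytoplasm (adjusted p = 0.0157). The ratios of AGO2 and AGO3 fell by 0.57 (adjusted p = 0.0134) and by 0.66 (adjusted p = 0.00887), and the AGO3 call was lost on TPM (adjusted p = 0.0706 and 0.0906). AGO4, the member that was not edited, was higher in the knockout by 0.37 in the nucleus (adjusted p = 0.0139) and by 0.68 in the cytoplasm (adjusted p = 4.42e-04), and its ratio difference of -0.31 did not pass (adjusted p = 0.189). These are RNA levels, and an edited gene can keep its RNA while losing its protein.

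The fractions were checked against NEAT1, the scaffold of nuclear paraspeckles, and MALAT1, a lncRNA of nuclear speckles. NEAT1 (chr11:65422774-65445540) had 431, 388 and 388 CPM in the knockout nuclei and 49.7, 60.0 and 50.0 CPM in the cytoplasm, a 7.56-fold nuclear excess. MALAT1 (chr11:65497640-65508073) had 7465, 7474 and 6385 CPM in the nuclei and 1228, 1367 and 1181 CPM in the cytoplasm, a 5.65-fold excess. Both markers therefore placed all 6 libraries as labelled, with no overlap between fractions. The MALAT1 ratio was 2.5 in the knockout and 3.79 in wild type, a fall by 1.29 ± 0.247 (SE, n = 3 per group, adjusted p = 0.00591). MALAT1 nuclear levels of 11541, 12930 and 17007 CPM in wild type lay above all 3 knockout nuclei, and the cytoplasmic difference of 0.33 did not pass (adjusted p = 0.175). The NEAT1 difference of -0.94 did not pass either (adjusted p = 0.0637), and the nuclear wild type library at passage 29 held 991 CPM where passages 27 and 28 held 497 and 499 CPM.

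Across all genes of the knockout, 6600 (34.9%) were higher in the nucleus and 6274 (33.2%) in the cytoplasm, and the median ratio was 0.01. Of these, 4323 genes (22.9%) were at least 2-fold nuclear and 1880 (9.94%) at least 2-fold cytoplasmic. The 3 nuclear libraries did not overlap the 3 cytoplasmic ones for 14650 genes (77.4%). An exact permutation test on a single gene with 3 libraries a side cannot go below a two-sided p of 0.1, so that calls rest on the fit across genes. In wild type, 6984 genes (36.9%) were nuclear and 7387 (39.1%) cytoplasmic, with 5172 (27.3%) and 3271 (17.3%) past 2-fold.

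**Figure D1:**
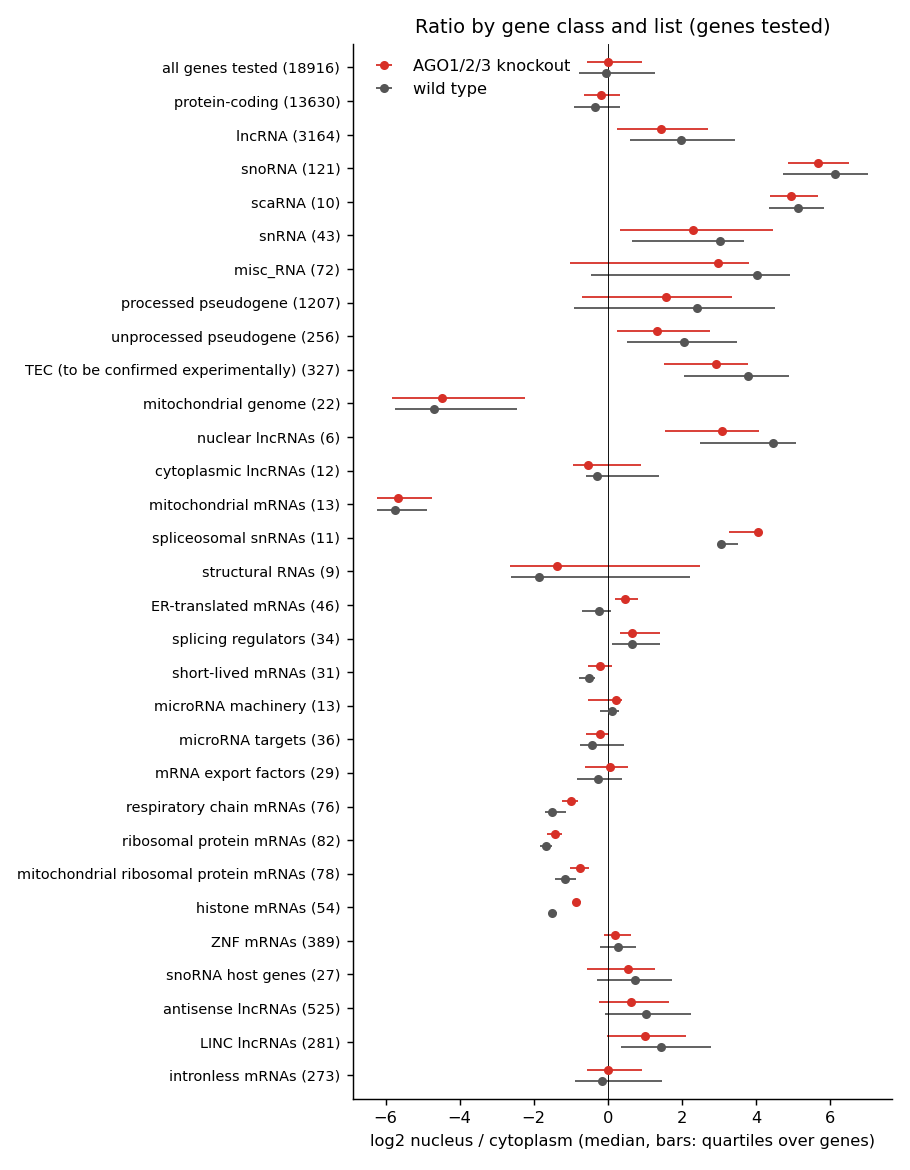
Median log2 nucleus-to-cytoplasm ratio of each gene class and gene list in AGO1/2/3 knockout and wild type cells, with bars for the interquartile range over the tested members. Small nucleolar RNAs lie furthest to the nucleus (5.66 in the knockout), mitochondrially encoded mRNAs furthest to the cytoplasm (-5.66), and the ER-translated mRNAs move from -0.24 in wild type to 0.45 in the knockout.

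The classes ran from strongly nuclear small RNAs to strongly cytoplasmic mitochondrial RNAs. Small nucleolar RNAs (snoRNAs), which guide the modification of ribosomal RNA, had a median ratio of 5.66, and 120 of the 121 tested were called nuclear. All 10 small Cajal body RNAs tested were nuclear, with a median of 4.95, and SCARNA2, which guides modification of spliceosomal RNA, had a ratio of 5.78. The annotation holds 941 snoRNAs and 49 small Cajal body RNAs, most of which did not pass the filter on low counts. These 2 classes took 0.00447% and 0.00134% of the knockout cytoplasmic reads. Their members could pass the filter through the nuclear libraries alone, which favours nuclear calls, so that these counts are a description only. The 11 spliceosomal small nuclear RNAs were nuclear as well, with a median of 4.04. Among them RNU4-2, the U4 RNA, had a ratio of 4.11, higher than the 2.99 of wild type (adjusted p = 0.017). The call on RNU4-2 was lost without the nuclear wild type library at passage 28 (adjusted p = 0.0518).

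lncRNAs were nuclear in most cases. Of 3164 tested, 2010 were called nuclear and 259 cytoplasmic, with a median ratio of 1.44 in the knockout and 1.98 in wild type. MIR222HG, the host transcript of the miR-221 and miR-222 precursors, led the protein-coding and lncRNA genes with at least 5 CPM in one fraction and 0.5 CPM in the other, with 53.3, 50.7 and 45.2 CPM in the nuclei against 2.24, 2.22 and 1.70 CPM in the cytoplasm, a 24.2-fold difference. SNHG22 (4.47), LINC00342 (4.42), SCARNA9 (4.33), KCNQ1OT1 (4.25), TSPAN5-DT (4.14) and N4BP2L2-IT2 (4.10) followed. KCNQ1OT1 is the lncRNA that silences imprinted genes around KCNQ1, and SCARNA9 carries a small Cajal body RNA. MIR17HG, the host of the miR-17 cluster, had a ratio of 5.88 at means of 16.1 and 0.271 CPM. Other lncRNAs were mainly cytoplasmic, among them NORAD, which binds Pumilio proteins (-0.52), and SNHG6 (-1.50) and SNHG16 (-1.76), both snoRNA host genes. Whether the counting used the strand is not given in the sources used here, so that an antisense lncRNA and its partner cannot be told apart.

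Protein-coding genes spread to both sides, with 3246 of 13630 nuclear, 5635 cytoplasmic and a median ratio of -0.18. The sign of that median depends on the scaling, since it was 0.01 with factors from nuclear-encoded protein-coding genes and 0.28 to 0.45 on TPM. FTL and FTH1, the light and heavy chains of the iron store ferritin, were among the genes furthest to the cytoplasm. FTL had 167, 169 and 161 CPM in the nuclei and 1201, 1388 and 1482 CPM in the cytoplasm, a ratio of -3.03. FTH1 had 315, 303 and 309.7 CPM in the nuclei and 1805, 2103 and 2213 CPM in the cytoplasm, a ratio of -2.72. Neither ratio differed detectably from wild type (differences of -0.04 for both genes, adjusted p = 0.876 and 0.932). C12orf75 (-2.55), C4orf48 (-2.41), PPDPF (-2.33) and CIB2 (-2.25) lay on the same side, together with COMMD3-BMI1 (-3.06), a readthrough transcript that shares reads with 2 neighbouring genes, and RPSA2 (-2.22), a copy of the ribosomal protein gene RPSA.

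RNA made inside mitochondria was almost wholly cytoplasmic. None of the 22 genes of the mitochondrial genome was nuclear, 18 were cytoplasmic, and the median ratio was -4.47. MT-CO1, a subunit of cytochrome c oxidase, had 743, 596 and 627 CPM in the nuclei and 29017, 34833 and 35351 CPM in the cytoplasm. MT-CO3, another subunit of that enzyme, differed 116-fold (ratio -6.86). Mitochondrial genes took 0.316% of the nuclear reads and 10.2% of the cytoplasmic reads.

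Messages of housekeeping complexes made from nuclear genes were cytoplasmic, but less so than in wild type. Of 82 cytosolic ribosomal protein genes 76 were cytoplasmic, with RPS12 at -2.22 and RPS2 at -2.01. Of 76 oxidative phosphorylation genes 68 were cytoplasmic, with a median of -1.0 against -1.52 in wild type. In that list 43 ratios rose and none fell, where 10.3% and 6.64% of all genes did so. NDUFC2, a subunit of complex I, rose by 0.84 (adjusted p = 0.00116) and ATP5F1B, the catalytic subunit of ATP synthase, rose by 0.70. The mitochondrial ribosomal protein genes had 22 rises among 78 (28.2%), the cytosolic ribosomal protein genes 20 among 82 (24.4%) and the histone genes 8 among 54 (14.8%). None of the 3 lists had a fall. Over all protein-coding genes 14.0% rose and 5.7% fell, and in the highest of 4 equal parts by level 30.3% rose and 3.11% fell. The shares of rises in the 3 lists lay below that of the highest part, and the 56.6% of the oxidative phosphorylation list lay above it. The cytosolic ribosomal protein count depended on the processing. It was 3 without the nuclear wild type library at passage 28, 5 with 1 fall without passage 27, 9 with 4 falls without passage 29, and 8 and 10 without passage 12 of the knockout nuclei and cytoplasm. With RLE factors 8 rose and 3 fell, with protein-coding factors 4 rose and 3 fell, with a mean count of at least 50 5 rose and 3 fell, with DESeq2 21 rose and 3 fell, and without a filter 11 rose.

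Structural RNAs lay on both sides. All those given here are RNAs made by RNA polymerase III, and RN7SK, RPPH1 and RMRP were chosen after their values were seen. RN7SK, the scaffold that holds the elongation factor P-TEFb in the nucleus, had a mean of 9283 CPM in the knockout nuclei and 24895 CPM in the cytoplasm, a ratio of -1.42, and its wild type ratio was -1.14. RPPH1, the RNA of the nuclear enzyme RNase P, had a ratio of -3.37. RMRP, the RNA of the related RNase MRP, had a ratio of 3.20. RN7SL1, the RNA of the signal recognition particle that brings ribosomes to the ER, had a ratio of -1.14 and rose by 0.72 against wild type (adjusted p = 0.0076), a call lost on TPM. RNY1, a Y RNA bound by the Ro protein, had a ratio of -3.48. Many such RNAs have near-identical copies, and how reads were split between copies cannot be seen here.

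Among protein-coding genes with at least 50 CPM, the 40 furthest to the nucleus were taken, a set picked by value. Transcript length is that of the transcript with the highest mean TPM in the knockout libraries, which need not be the coding one. IQGAP1, a scaffold of the actin cytoskeleton (chr15:90388242-90502239), had 1461, 1422 and 1407 CPM in the nuclei and 62.7, 90.4 and 61.7 CPM in the cytoplasm, a ratio of 4.32. AHNAK, a giant scaffold protein, had means of 8642 and 505 CPM and a ratio of 4.10. RSRP1 had a ratio of 4.03 and CCNL1 a ratio of 2.65. Their most abundant transcripts, of 2941 and 753 bases, have no annotated coding sequence, so that these are not lengths of the messages. FLNA (2.86) encodes a filamin, SPTAN1 (3.51) and SPTBN1 (3.50) encode spectrins, and PLEC (3.28), DST (2.76), UTRN (3.18) and SYNE2 (3.06) encode large linker proteins. TPR, a protein of the nuclear pore basket, had a ratio of 3.02.

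Median transcript length was 6967 bases in these 40 genes and 3283 bases in the 4726 protein-coding genes at that level. Of the 40, 26 were longer than 6000 bases, against 19.1% of the larger set. All 40 were nuclear in wild type as well, and only 3 had a higher and 2 a lower ratio in the knockout, UTRN being one of those that rose (from 2.45 to 3.18). Over the protein-coding genes with an annotated 3′ UTR, cut into 4 equal parts by transcript length outside it, the median ratio ran from -0.75 through -0.39 and -0.09 to 0.25, and the nuclear share ran from 8.92% to 46.3%. Expression level, read depth and sequence content also vary with length, and their part in this order was not tested.

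Within protein-coding genes, transcripts annotated as retained introns took 9.72% ± 0.649 of the TPM of those genes (SD, n = 3) in the knockout nuclei and 3.13% ± 0.0721 in the cytoplasm. In the wild type nuclei the share was 15.6% ± 0.281, above all 3 knockout nuclei, and in the wild type cytoplasm it was 3.21% ± 0.018. These are shares of transcript models as the authors' quantification assigned them. Of the 34 splicing regulators, whose genes often keep introns in the nucleus, 26 were nuclear and none cytoplasmic. CCNL1, a cyclin linked to splicing, had a ratio of 2.65, and DDX5, an RNA helicase, had a ratio of 1.11. Against wild type 1 regulator rose and 2 fell (2.94% and 5.88%), beside 10.3% and 6.64% of all genes and 14.0% and 5.7% of protein-coding genes.

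The second question is which genes changed compartment relative to wild type. Knockout and wild type ratios, which share no library, ran together across genes (Pearson r = 0.90, Spearman rho = 0.92 over 18916 genes, which are not independent replicates). The knockout ratios spread less, with an interquartile range of 1.49 against 2.05, and 73.1% of genes lay nearer to 0 than in wild type. The ratio was higher in the knockout for 1947 genes (10.3%) and lower for 1256 (6.64%), together 16.9% of genes. At a change of 2-fold or more, 66 genes (0.349%) were higher and 487 (2.57%) lower.

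The split between higher and lower depends on how the fractions are scaled. It was 60.8% higher in the fit above, 44.9% with RLE size factors, 38.3% with factors from protein-coding genes, 37.1% when only genes with a mean count of at least 50 were kept, 49.0% with DESeq2 and 39.8% to 48.9% on TPM. Without passage 29 of wild type in both fractions 3930 genes were higher and 1891 lower. The number of higher genes ranged from 912 without the nuclear wild type library at passage 28 to 3278 without the cytoplasmic one at passage 29. Without passage 14 of the knockout nuclei, 708 genes were lower.

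**Figure D2:**
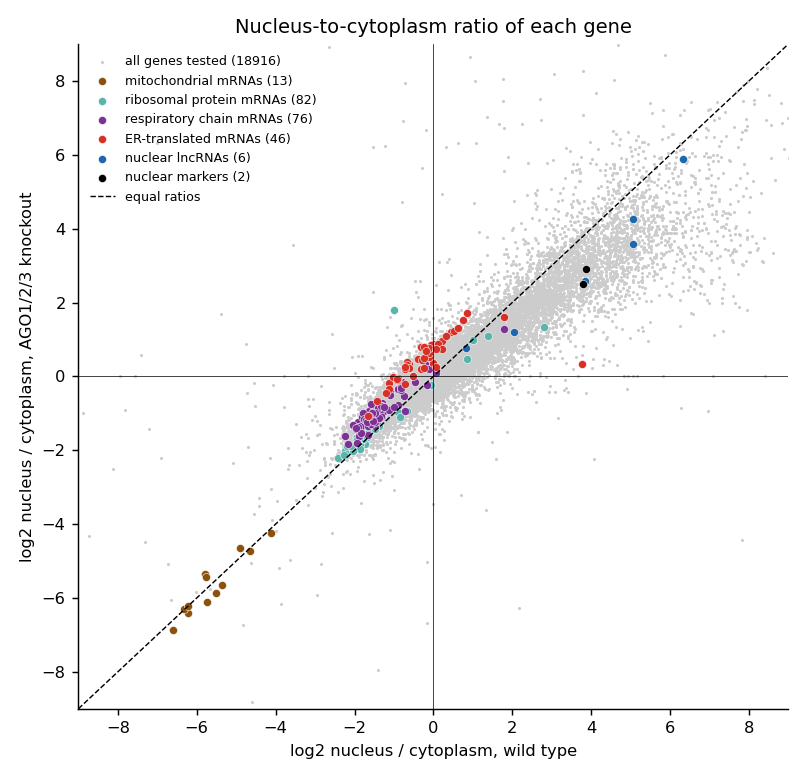
Log2 nucleus-to-cytoplasm ratio of each tested gene in wild type (horizontal axis) and in AGO1/2/3 knockout cells (vertical axis), in grey, with the members of gene lists in colour and a dashed line at equal ratios. ER-translated mRNAs lie above the line (44 of 46), NEAT1 and MALAT1 below it, and 29 genes lie outside the axes.

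The called changes mostly ran toward 0 from either side. The wild type ratio is part of each called difference, so that a low one favours a rise and a high one a fall. How much of the pattern comes from this was not tested. Of all 18916 genes tested, 36.9% were called nuclear and 39.1% cytoplasmic in wild type, and 13630 were protein-coding and 3164 lncRNAs. Of the 1947 genes whose ratio rose, 1823 had lain on the cytoplasmic side in wild type and 1903 were protein-coding, with 7 lncRNAs. Of the 1256 genes whose ratio fell, 1187 had lain on the nuclear side in wild type, and they comprised 777 protein-coding genes and 328 lncRNAs. lncRNA ratios had a median difference of -0.44, with a median change of -0.52 in the nucleus and 0.02 in the cytoplasm, and the sign of the difference held under every alternative (-0.57 to -0.23). Detection moves with level: among protein-coding genes, cut into 4 equal parts by level, 30.3% of ratios were called higher in the highest part and 1.41% in the lowest.

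LMAN1, the cargo receptor that carries glycoproteins from the ER to the Golgi, had the largest rise among genes with at least 5 CPM in every group. LMAN1 (chr18:59327823-59359265) had 22.0, 23.2 and 20.1 CPM in the knockout nuclei against 117, 121 and 119 CPM in wild type. In the cytoplasm it had 7.21, 7.71 and 7.26 CPM against 151, 149 and 155 CPM. No knockout library came near a wild type library, and the loss was 5.47-fold in the nucleus and 20.5-fold in the cytoplasm. The LMAN1 ratio therefore rose from -0.35 to 1.56, by 1.91 ± 0.095 (SE, n = 3 per group), while its total level fell.

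DAB2IP, a GTPase-activating protein that restrains Ras signalling, had the same pattern at lower levels. It had 13.5, 13.2 and 12.1 CPM in the knockout nuclei and 7.54, 8.30 and 8.17 CPM in the cytoplasm, against 31.5, 31.4 and 26.2 and 39.9, 42.9 and 37.3 CPM in wild type. Its level fell by 1.20 in the nucleus and by 2.32 in the cytoplasm, and its ratio rose by 1.12 (adjusted p = 8.15e-04). In AGO1, LMAN1 and DAB2IP alike the level fell in both fractions, and further in the cytoplasm. CPVL, a serine carboxypeptidase, also fell in the cytoplasm (by 1.25), and its nuclear difference of -0.08 did not pass (adjusted p = 0.667).

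HSPA5, the ER chaperone BiP, changed on the nuclear side instead. It had 1373, 1355 and 1289.5 CPM in the knockout nuclei against 676, 610 and 914 CPM in wild type, with no overlap. In the cytoplasm it had 743, 753 and 821 CPM against 845, 869 and 1032 CPM, a difference of -0.25 that did not pass (adjusted p = 0.186). The HSPA5 ratio rose from -0.32 to 0.79, by 1.11 ± 0.187 (SE, n = 3 per group, adjusted p = 0.00351). LIPA, the lysosomal acid lipase, had 43.7, 47.9 and 44.3 CPM in the knockout nuclei against 21.7, 18.1 and 23.7 CPM in wild type, with overlapping cytoplasmic levels. Its ratio rose by 1.10 ± 0.151 (SE, n = 3 per group, adjusted p = 0.00142).

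The other named rises were ELFN2, a membrane protein with leucine-rich repeats (1.29), FMC1-LUC7L2, a readthrough that shares reads with both of its genes (1.27), ACTN1, an actin crosslinker (1.10), and THBS1, a secreted matrix glycoprotein (1.07). The ACTN1 call rested on thin evidence (adjusted p = 0.0269) and was lost in 5 of the fits that left out 1 library (adjusted p = 0.0526 to 0.0804), those without passage 11 of the knockout cytoplasm, passage 14 of the knockout nuclei, passage 28 of the wild type cytoplasm, and passage 27 or 28 of the wild type nuclei. The THBS1 call was lost on TPM and on length-scaled counts.

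**Figure D3:**
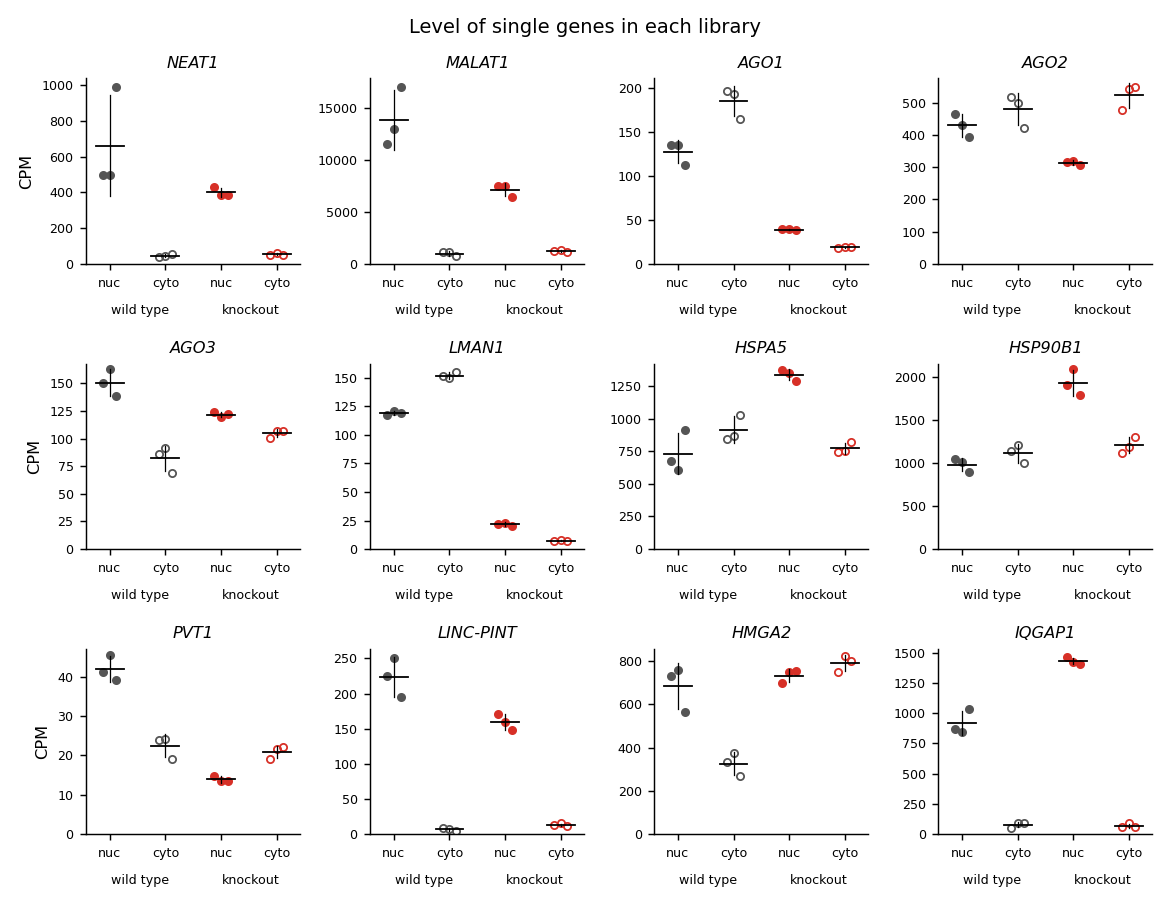
CPM in each of the 12 nuclear and cytoplasmic libraries of AGO1/2/3 knockout and wild type cells for 12 genes, 1 panel each on a linear axis from 0, with 1 point per library, a horizontal bar at the group mean and a vertical line of 1 SD to each side. LMAN1 falls to 7.21 to 7.71 CPM in the knockout cytoplasm, and every knockout cytoplasm library of HMGA2 lies above every wild type one.

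ER-translated mRNAs were then taken as a list of 50 genes, chosen with earlier results of these data known, of which 46 passed the filter on low counts. In the knockout 27 of the 46 were nuclear and 4 cytoplasmic, whereas in wild type 8 were nuclear and 21 cytoplasmic. Their median ratio was 0.45 against -0.24, beside 0.01 and -0.06 for all genes. Of the 46, 28 (60.9%) had a higher ratio in the knockout and none a lower one. Over all genes 10.3% rose and 6.64% fell, and over protein-coding genes 14.0% and 5.7%. In the highest of 4 equal parts of protein-coding genes by level, 30.3% rose and 3.11% fell, with a median difference of 0.31. The list was not matched to other genes by level. For 44 of the 46 list members the difference was above 0. Their median difference was 0.76, made of a change of 0.74 in the nucleus and of -0.08 in the cytoplasm. Under the alternatives the median difference stayed between 0.61 and 0.87.

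The members of that list included chaperones, receptors and adhesion proteins. SLC2A1, the glucose transporter GLUT1, moved from -0.66 to 0.39, and APP, the amyloid precursor protein, from -0.25 to 0.80. The chaperones calnexin (CANX) and calreticulin (CALR) rose by 0.99 (adjusted p = 8.15e-04) and 1.0 (adjusted p = 0.00701). PDIA3, a disulfide isomerase, rose by 0.98, and DSG2, a desmosomal cadherin, by 0.95. HSP90B1, the ER form of HSP90, had 1906, 2092 and 1785 CPM in the knockout nuclei against 1042, 1008 and 893 CPM in wild type, and its cytoplasmic levels overlapped. Its ratio rose by 0.86 (adjusted p = 0.0033). HSPG2, which encodes the matrix proteoglycan perlecan, had a knockout ratio of 1.71, and SEC61B, a subunit of the translocation channel, a ratio of -1.07, with a rise lost in 9 of the 12 fits that left out 1 library. LAMA5, a laminin chain, had a difference of -0.17 that did not pass, and COL17A1 had one of -3.43 at low counts.

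Sums over marker lists were also taken, and that of the ER list restates the result above from the same genes and libraries. Summed over the list, ER-translated mRNAs had 18675 to 19907 CPM in the knockout nuclei and 9657 to 12124 CPM in the wild type nuclei, while the cytoplasmic ranges of 14087 to 16372 and 13943 to 15113 CPM overlapped. NEAT1 and MALAT1, both detected in every library, summed to 6773 to 7896 CPM in the knockout nuclei against 12037 to 17997 CPM in wild type, and to 1231 to 1427 against 789 to 1176 CPM in the cytoplasm. Mitochondrially encoded mRNAs summed to 2672 to 3314 CPM in the knockout nuclei and 2748 to 4191 CPM in the wild type nuclei, which overlapped, and to 107336 to 137179 and 110103 to 112116 CPM in the cytoplasm. Cytosolic ribosomal protein mRNAs summed to 23991 to 25778 CPM in the knockout nuclei against 20175 to 21467 CPM in wild type. Their cytoplasmic ranges of 69102 to 73891 and 65827 to 70409 CPM overlapped. As shares of all reads, without normalization factors, their nuclear ranges of 2.65% to 2.76% and 2.58% to 2.81% overlapped too. The nuclear read shares of the ER list, 1.99% to 2.17% and 1.25% to 1.58%, stayed apart. The study checked the removal of ER proteins from its nuclei by microscopy and western blot. The deposited libraries hold no protein or imaging measure of ER or cytoplasm left in each nuclear preparation. RN7SL1 had means of 25983 CPM in the knockout nuclei and 11163 CPM in the wild type nuclei, and GAPDH 2671 and 1429 CPM. In the cytoplasm of knockout and wild type, RN7SL1 had 57104 and 40422 CPM, and GAPDH 4021 and 3376 CPM. The mainly cytoplasmic lncRNA NORAD had 303 and 300 CPM in the knockout and wild type nuclei. These 3 genes were picked with their values known. The part of leftover ER or cytoplasm in the ratios was not tested.

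**Figure D4:**
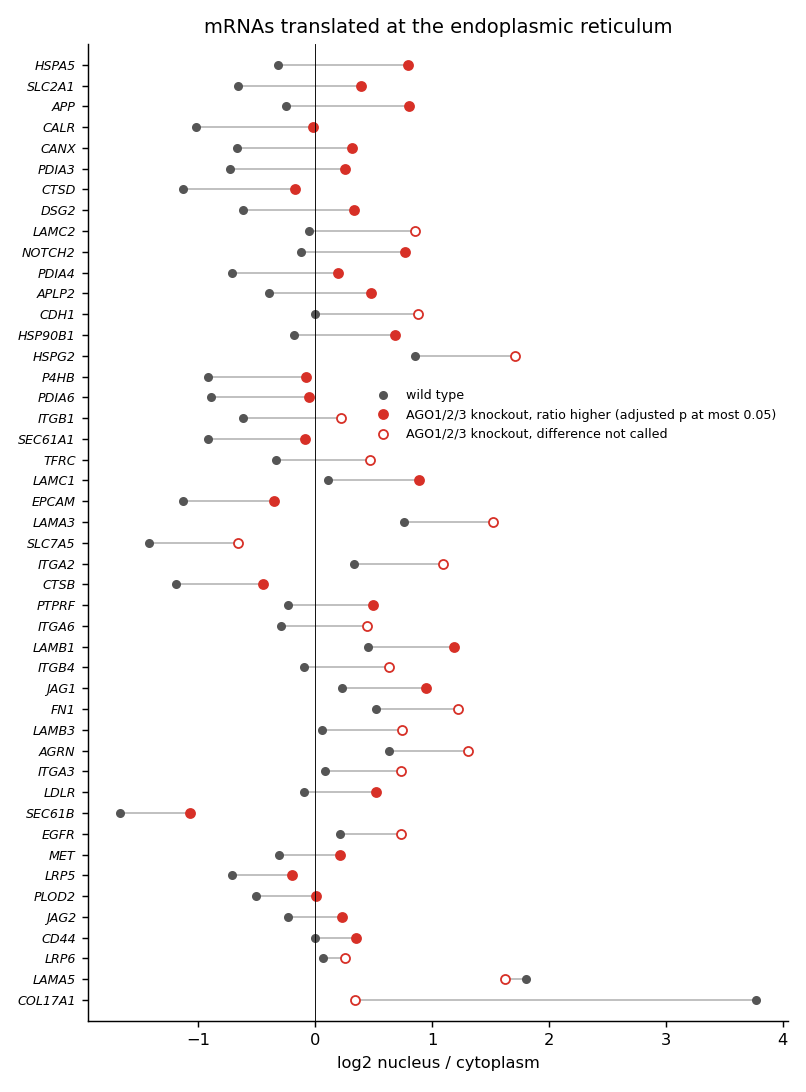
Log2 nucleus-to-cytoplasm ratio of the 46 tested ER-translated mRNAs in wild type and in AGO1/2/3 knockout cells, 1 row per gene with the difference drawn as a line and filled points for the 28 called differences. The ratio is above 0 for 14 genes in wild type and for 36 in the knockout, and the lines of 44 genes run toward the nucleus.

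The count of 28 also moved with single libraries. It was 18 without the nuclear wild type library at passage 28, 37 without the one at passage 29, and 43 when passage 29 was left out of both wild type fractions. In no alternative did more than 1 member fall.

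The named falls were mostly lncRNAs. HELLPAR, a very long intergenic lncRNA, had 86.7, 81.3 and 62.2 CPM in the knockout nuclei against 313, 344 and 168 CPM in wild type, with overlapping cytoplasmic levels, and its ratio fell by 1.92 ± 0.397 (SE, n = 3 per group, adjusted p = 0.00836). PVT1, the lncRNA next to MYC (chr8:127794526-128187101), had 14.9, 13.5 and 13.4 CPM in the knockout nuclei against 41.1, 45.5 and 39.1 CPM in wild type. Its cytoplasmic levels of 19.2, 21.6 and 22.1 CPM overlapped the wild type levels of 24.0, 24.3 and 19.2 CPM. PVT1 thus passed from a nuclear ratio of 0.90 to a cytoplasmic one of -0.59, a fall by 1.48 ± 0.145 (SE, n = 3 per group, adjusted p = 6.56e-04), although on TPM its knockout ratio was 0.02. MYC itself, a short-lived message for a growth-promoting transcription factor, had a knockout ratio of 0.04 and rose by 0.55 (adjusted p = 0.0059).

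LINC-PINT, a lncRNA induced by p53, stayed strongly nuclear while its ratio fell. It had 171, 160 and 148 CPM in the knockout nuclei and 13.0, 15.3 and 11.5 CPM in the cytoplasm, a 12.0-fold excess. In wild type it had 224, 251 and 195 CPM and 8.77, 6.96 and 4.44 CPM, so that the nucleus lost and the cytoplasm gained, and the ratio fell by 1.47. The ratios of RANBP17, an importin-like transport receptor (fell by 1.47), NUTM2A-AS1 (by 1.34), NUTM2B-AS1 (by 1.30), FTX (by 1.29), NR2F1-AS1 (by 1.27) and MOSMO, a regulator of Hedgehog signalling (by 1.27), completed the named falls. NUTM2A-AS1 and NUTM2B-AS1 belong to duplicated regions that can share reads. None of the 525 antisense lncRNAs tested rose and 56 fell, and none of the 281 intergenic LINC genes rose and 28 fell. Their shares of falls, 10.7% and 9.96%, were close to the 10.4% of all lncRNAs.

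Few genes were called on opposite sides in the 2 genotypes. From called cytoplasmic in wild type to called nuclear in the knockout, 119 genes (0.629%) changed side, and 43 (0.227%) changed the other way, 162 in all. The total was 101 without the nuclear wild type library at passage 28 and 305 without passage 29 of wild type in both fractions. Genes that changed side were ranked by the smaller of their 2 absolute ratios. By that rank AGO1, MISP, an actin-binding protein of the mitotic spindle (from -0.50 to 0.48), and SEZ6L2, a membrane protein (from -0.58 to 0.48), were among the first 5 to the nucleus. The rank is not one by size, and the ratios of LMAN1 (1.91) and DAB2IP (1.12) rose by more than those of MISP (0.99) and SEZ6L2 (1.06). The knockout call behind the move was lost in 6 alternatives for MISP (adjusted p = 0.056 to 0.151), among them those without passage 11 or 14 of either knockout fraction or passage 27 of the wild type nuclei, and for SEZ6L2 without passage 11 or 12 of the knockout cytoplasm or passage 11 of the knockout nuclei (0.0512 to 0.0657). MISP had 60.9, 52.3 and 63.0 CPM in the knockout nuclei and 27.2, 21.6 and 32.9 CPM in the wild type nuclei, and its cytoplasmic levels overlapped. The difference for MISP was lost in 7 alternatives, with adjusted p from 0.0554 to 0.0958, among them those without passage 14 of either knockout fraction, without passage 11 of the knockout nuclei, and without passage 27 or 28 of the wild type nuclei.

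Of the moves to the nucleus named here, the 2 largest in size came from genes near the floor. ADORA2A, an adenosine receptor, had 1.43, 0.474 and 0.560 CPM in the knockout nuclei and 0.065, 0.0161 and 0.430 CPM in the cytoplasm, against 4.10, 3.76 and 4.50 CPM in the wild type cytoplasm. Its knockout call was lost without passage 11 of the nuclei (adjusted p = 0.0763). MDFIC, a regulator of transcription, had 2.88, 0.0677 and 3.64 CPM in the knockout nuclei and 0.162, 0.321 and 0.0661 CPM in the cytoplasm, so that the groups overlapped. The difference for MDFIC was lost on length-scaled counts and on TPM (adjusted p = 0.187 to 0.26). Its knockout call was lost in the same alternatives and without passage 14 of the knockout cytoplasm or nuclei (adjusted p = 0.056 to 0.418).

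Of the moves to the cytoplasm, PRELID2, a lipid transfer protein of mitochondria, went from 0.82 to -0.43. It had 11.7, 11.1 and 9.96 CPM in the knockout nuclei against 23.4, 22.0 and 20.3 CPM in wild type. On TPM, PRELID2 lay on the nuclear side in the knockout. SERF1A went from 2.61 to -0.69 at under 3 CPM and shares its reads with the near-identical SERF1B. Its knockout call was lost with DESeq2, with protein-coding factors, and without passage 14 of the knockout cytoplasm or passage 11 of the knockout nuclei (adjusted p = 0.0503 to 0.111). LINC02609 went from 0.76 to -0.54, a difference that was lost on TPM and on length-scaled counts. The knockout call of LINC02609 was lost on TPM, with protein-coding factors and with a mean count of at least 50 (adjusted p = 0.0526 to 0.34).

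MicroRNA targets were examined next, because Argonaute proteins act on them. HMGA2, a chromatin protein of embryonic and tumour cells and a well known target of let-7, has 4 matches to the let-7 seed in its 3′ UTR. The mature let-7a sequence is taken from RefSeq (GRCh38.p14, MIRLET7A1, chr9:94175962-94175983, plus strand), and the 4 sites from hg38, plus strand, in the last exon of transcript ENST00000403681. Capitals mark the seed, bases 2 to 8 of the microRNA, and the 7 bases CTACCTC in the message that pair with it.
hsa-let-7a-5p: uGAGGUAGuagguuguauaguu
HMGA2 site 1, chr12:65963298-65963325: gccaacgttcgatttCTACCTCagcagc
HMGA2 site 2, chr12:65964533-65964560: ccccactactcaataCTACCTCtgaatg
HMGA2 site 3, chr12:65964945-65964972: ttgacttgcaaagacCTACCTCcagact
HMGA2 site 4, chr12:65965798-65965825: aatcaaaacacactaCTACCTCttaagt
Matches were searched on the sense strand of the 3′ UTR only, where 8.59% of 12088 genes hold 1 and 1.07% hold 2 or more. A match is a description of the letters and not a bound site.

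HMGA2 had 334, 374 and 269 CPM in the wild type cytoplasm and 749, 824 and 797 CPM in the knockout cytoplasm, a 2.43-fold rise with no overlap. In the nuclei it had 696, 748 and 751 CPM in the knockout and 730, 758 and 563 CPM in wild type, which overlapped (difference 0.10, adjusted p = 0.55). HMGA2 therefore went from a nuclear ratio of 1.07 to one of -0.11, a fall by 1.18 ± 0.181 (SE, n = 3 per group, adjusted p = 0.00248). Its fall was called under all alternatives, although on TPM the knockout ratio itself was 0.72 to 0.73.

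The list of 38 microRNA targets and growth genes, 36 of them tested, held both rises and falls. In that list 6 ratios fell and 3 rose, where 6.64% and 10.3% of all genes and 5.7% and 14.0% of protein-coding genes did so. The falls were HMGA2, TGFBR2, a receptor for TGF-beta (by 0.74), BCL2L11, a promoter of cell death (by 0.71), ZEB1, a repressor of epithelial genes (by 0.67), RECK, an inhibitor of matrix proteases (by 0.57), and ARID3B, a DNA-binding protein (by 0.38). All 6 passed as higher in the knockout cytoplasm, by 0.40 to 2.0. In the nucleus ZEB1 passed as higher (by 1.33, adjusted p = 3.08e-06), and the other 5 had differences of -0.23 to 0.27 that did not pass. A fall of the ratio is a nuclear change below the cytoplasmic one, so that the 6 were picked in part by their cytoplasmic rise. Over the 36 tested members the median change was 0.05 in the cytoplasm and 0.13 in the nucleus. The rises were TIMP3, a protease inhibitor (0.95), CCND1, the cell cycle regulator cyclin D1 (0.49), and NRAS, a Ras GTPase (0.41), and the calls on TIMP3 and NRAS were lost in 9 and 7 of the 12 fits that left out 1 library. The number of falls was 2 without passage 14 of the knockout nuclei, 3 without passage 14 of the knockout cytoplasm or passage 28 of the wild type cytoplasm, 4 in 6 other such fits, and 7 at most. The number of rises was 0 with RLE factors, protein-coding factors or a mean count of at least 50. With the block for passage 11 rose and 6 fell, and without passage 29 of wild type in both fractions 7 rose and 6 fell. Which of the 2 directions held more members therefore depended on the processing. The median difference was 0.06 and became -0.10 to -0.04 with DESeq2, RLE size factors, protein-coding factors or a mean count of at least 50.

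Across all genes, let-7 matches went with small differences. The median ratio difference was 0.17 in genes without a let-7 match, 0.07 with 1 match and 0.04 with 2 or more. Median 3′ UTR length rose over the same groups, from 909 to 2450 and 3920 bases. The seed of miR-1, a microRNA of muscle, gave 0.17, 0.10 and -0.00 over the same kinds of group, and that of miR-122, a microRNA of liver, gave 0.16, 0.12 and 0.18. Within the longest of 4 equal parts of 3′ UTRs the medians were 0.10 without and -0.00 with a let-7 match, 0.12 and 0.02 for miR-17, 0.09 and 0.04 for miR-1, and 0.08 and 0.06 for miR-122. How much of these small gaps went with length was not tested further.

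Genes of the microRNA pathway and of RNA export are read against the 10.3% of all genes whose ratio rose and the 6.64% whose ratio fell. Among protein-coding genes these shares were 14.0% and 5.7%. Of 13 microRNA machinery genes 5 were nuclear and 4 cytoplasmic, 1 ratio rose and 2 fell, these being the 3 edited AGO genes. Of 29 export factors 11 were nuclear and 12 cytoplasmic, and 3 (10.3%) rose. Short-lived messages, a list of 31 that holds early response genes, had 1 nuclear and 8 cytoplasmic members, with 3 rises (9.68%). Zinc finger genes, 389 in number, had 166 nuclear and 62 cytoplasmic members, with 11 rises (2.83%) and 24 falls (6.17%).

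AGO1/2 knockout cells (AGO1-/- and AGO2-/-, at passages 9, 10 and 11) keep AGO3 and are the nearest genotype. Of 19009 genes tested, 1 (0.00526%) had a higher ratio in the AGO1/2/3 knockout and 0 a lower one by edgeR's quasi-likelihood test, while 2583 passed an unadjusted p of 0.05. DESeq2 called 144 higher and 82 lower, limma on TPM called 85 to 129 higher and 4863 to 4935 lower, and without passage 14 of the AGO1/2/3 knockout cytoplasm edgeR called 35 higher and 192 lower. The gene called by edgeR was SNORA61, a snoRNA, and it had 0 CPM in all 3 cytoplasmic libraries of the AGO1/2/3 knockout, so that no ratio can be given. A missing call does not show that the lines were alike.

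**Figure D5:**
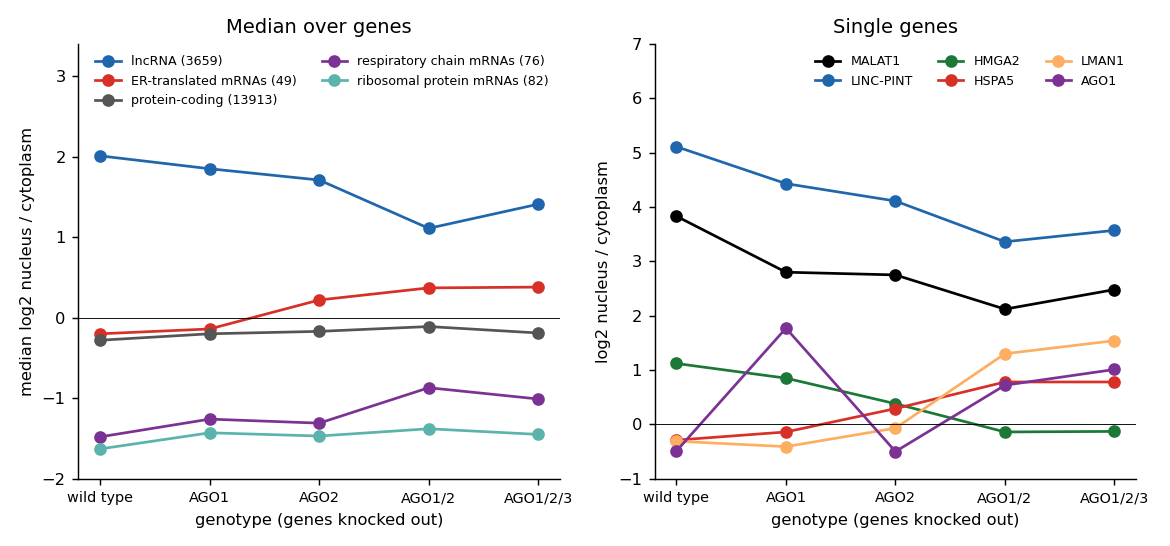
Log2 nucleus-to-cytoplasm ratios from 1 fit of all 30 libraries in wild type cells and the 4 knockout lines, as medians of gene groups and as values of named genes. The AGO1/2 and the triple knockouts lie close to each other for the ER list (0.37 and 0.38) and for HMGA2 (-0.14 and -0.13).

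The order over the 5 genotypes is given as a description from 1 fit of all 30 libraries. The interquartile range of ratios was 2.23 in wild type, 2.0 in the AGO1 knockout, 1.85 in the AGO2 knockout, 1.47 in the AGO1/2 knockout and 1.59 in the AGO1/2/3 knockout. The median of the ER list ran through -0.20, -0.14, 0.22, 0.37 and 0.38 in that order. HMGA2 had ratios of 1.12, 0.85, 0.38, -0.14 and -0.13, and HSPA5 of -0.29, -0.14, 0.29, 0.78 and 0.78. LMAN1 was nuclear in the lines without both AGO1 and AGO2, with ratios of -0.31, -0.41, -0.07, 1.30 and 1.54, and PVT1 turned cytoplasmic in the same lines (0.94, 0.76, 0.18, -1.17 and -0.60). Each genotype is 1 line, and no test was made between these values.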

How the data were processed

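Total RNA depleted of ribosomal RNA was sequenced with a strand-marking kit from nuclei and cytoplasm separated in a hypotonic buffer. The authors aligned reads to hg38 and quantified transcripts, with STAR 2.5.3a and Salmon 0.11.0 named in the submitters' processing notes, and deposited an estimated count and a TPM value for each transcript of each library. The deposited estimated counts were summed per gene through GENCODE 44 (195887 of 200401 transcripts matched, and the other 4514 held 2.23% to 4.01% of the reads) and rounded. TPM entered only alternatives and the shares of transcript types.

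Genes with at least 10 reads in enough libraries (filterByExpr) were tested with edgeR 4.0.16, TMM factors and the quasi-likelihood test, in 1 fit of the 12 knockout and wild type libraries, with Benjamini-Hochberg adjustment. The AGO1/2 comparison used the 12 libraries of both knockouts, and genotypes were described from 1 fit of 30 libraries. DESeq2 1.42.0, limma 3.58.1 on log2(TPM + 1) and log2(TPM + 0.1), other scaling factors, other filters, length-scaled counts, a block for passage and leaving out each library were alternatives. On data simulated for the knockout against wild type interaction (18916 genes, 200 of them changed), 97% of 4-fold and 80% of 2-fold changes were recovered, and 12 unchanged genes were called (6.35% of calls). The changed genes were drawn from those with at least 1 CPM in every group, and each library was simulated independently. The real wild type fractions deviate together and most real ratios are narrowed, so that these rates need not hold for the calls above.

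Genes were named by rule: AGO1 to AGO4, NEAT1 and MALAT1; the 10 largest rises and the 10 largest falls of the ratio with at least 5 CPM in each group; the 8 genes furthest to each side; 5 genes in each direction that changed side; and from each list its most extreme called members and its most abundant member. The members and lists were chosen with earlier results of these data known. Passage numbers are not shared between the AGO1/2/3 knockout and wild type. Same-numbered nuclear and cytoplasmic libraries deviated together in wild type (correlations of 0.592, 0.604 and 0.821 over 11212 genes) but not clearly in the knockout (0.001, 0.289 and 0.029), so the main fit has no block. Libraries of AGO2-bound RNA were not used. Some genes that the rule names are not reported here.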

Additional observations from a re-analysis of the deposited data

Results flagged for a closer look

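Each value here was singled out because the nucleus-to-cytoplasm ratio differed between the AGO1/2/3 knockout and wild type by the interaction test of edgeR's quasi-likelihood fit, at an adjusted p of at most 0.05, and is the log2 knockout ratio minus the log2 wild type ratio. In all, 1947 genes were higher and 1256 lower, 162 were called on opposite sides, and 28 ER-translated mRNAs were higher. Against the AGO1/2 knockout the count was 1. Groups of 3 libraries are too small to test for a stray library.

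Among genes with a higher ratio, HSPA5 (1.11), HSP90B1 (0.86) and SEC61B (0.60) belong to the ER-translated list, and LMAN1 (1.91), ELFN2 (1.29), CPVL (1.17), LIPA (1.10), and THBS1 (1.07) do not. They stood beside AGO1 (1.56), DAB2IP (1.12), ACTN1 (1.10), MISP (0.99), SEZ6L2 (1.06), MYC (0.55), TIMP3 (0.95) and NRAS (0.41). Housekeeping messages were NDUFC2 (0.84), ATP5F1B (0.70), UQCR11 (0.34), FAU, a ribosomal protein gene (0.54), and the histone gene H3C15 (0.91). In fits that left out 1 library, the calls on SEC61B and UQCR11 were lost in 9 and 7 of 12, and that on H3C15 without passage 28 of the wild type nuclei. The small RNAs were RNU4-2 (1.12) and RN7SL1 (0.72). FMC1-LUC7L2 (1.27) shares reads with its neighbours, and MDFIC (7.13) and ADORA2A (3.80) rest on low counts.

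Among genes with a lower ratio, the lncRNAs were HELLPAR (-1.92), PVT1 (-1.48), LINC-PINT (-1.47), NUTM2A-AS1 (-1.34), NUTM2B-AS1 (-1.30), LINC02609 (-1.30), MALAT1 (-1.29), FTX (-1.29), NR2F1-AS1 (-1.27), MIR222HG (-1.13), N4BP2L2-IT2 (-1.07), SCARNA9 (-0.72) and OIP5-AS1 (-0.60). The protein-coding genes were SERF1A (-3.30), RANBP17 (-1.47), MOSMO (-1.27), PRELID2 (-1.25), HMGA2 (-1.18), AGO3 (-0.66), NKTR, a splicing-linked cyclophilin (-0.60), AGO2 (-0.57) and C12orf75 (-0.36). In fits that left out 1 library, the calls were lost in 10 of 12 for C12orf75, 5 for OIP5-AS1, 4 for NKTR, 3 for SCARNA9 and 1 for MIR222HG.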

How the results depend on the processing

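Of 80 named genes, 54 of 72 called ratios and 30 of 48 called differences kept their call under every alternative, and no called difference changed sign. The cause of the changes below was not tested. Leaving out wild type passage 29 in both fractions was added after seeing the data. On TPM with 0.1 and 1 added, where all genes shift by 0.59 and 0.31, 11040 and 10573 genes were nuclear and 1877 and 1889 cytoplasmic in the knockout. The ratio was higher in 1243 genes with RLE factors, 1063 with protein-coding factors, 1079 with a mean count of at least 50 and 3930 without wild type passage 29, and in 912 to 3278 leaving out 1 library. It was lower in 1890 genes with DESeq2, 2222 with all 30 libraries, 2767 on TPM + 1 and 1891 without wild type passage 29, and in 708 to 1807 leaving out 1 library. With the replicate block for passage, whose pairing the knockout libraries do not clearly show, 4085 were higher and 2166 lower, 331 changed side, 43 ER-translated mRNAs rose and 8 genes were higher than in the AGO1/2 knockout. Without wild type passage 29, 305 changed side and 43 ER-translated mRNAs rose, and leaving out 1 library gave 101 to 226 and 18 to 37. Against the AGO1/2 knockout, higher and lower genes were 144 and 82 with DESeq2, 30 and 24 with all libraries, 141 and 122 without a filter, 85 and 4863 on TPM + 0.1, 129 and 4935 on TPM + 1, and 1 to 35 and 0 to 192 leaving out 1 library (35 and 192 without passage 14 of the AGO1/2/3 knockout cytoplasm). RLE and protein-coding factors gave 6 and 4 higher.

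The median protein-coding ratio turned positive with protein-coding factors (0.01) and on TPM + 0.1 (0.45) and TPM + 1 (0.28), and that of microRNA targets became 0.37 and 0.20 on TPM. The median difference of microRNA targets turned to -0.08 with DESeq2, -0.04 with RLE factors, -0.10 with protein-coding factors and -0.04 with a mean count of at least 50. On TPM + 0.1 and + 1 the ratio turned positive for AGO4 (0.60, 0.45), FMC1-LUC7L2 (0.14, 0.13), PVT1 (0.02, 0.02), PRELID2 (0.32, 0.29), NORAD (0.13, 0.12), HMGA2 (0.73, 0.72) and ATP5F1B (0.40, 0.40), and for NR2F1-AS1 it became -0.67 with length-scaled counts. Fits leaving out 1 library keep 2 in that group, and depth limits calls in genes of low level.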
